A study of Mus musculus with 32 samples.

Results

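The endothelial fraction of tumours that grew on under sunitinib was set against the endothelial fraction of tumours given vehicle. The 8 arrays, of 32 in the series, were chosen by their sample titles: 4 mice labelled resistant and 4 vehicle mice. All mice were 8-week-old female Balb/C mice with tumours in the third mammary fat pad, grown from the mouse breast cancer line 4T1-Luc, which carries luciferase. From 1 week after implantation the resistant mice received sunitinib at 40 mg/kg in PBS with DMSO, and the other mice received vehicle. Tumours of both groups were resected at 1300 mm3. The label "resistant" is a call of the response up to day 8, and vehicle mice carry no such call. Tumours of both groups were digested with collagenase type V, DNase I and actinomycin D, a transcription blocker, and cells were taken with beads bearing the PECAM-1 antibody MEC13.3; this selected material is called the EC fraction, and the tissue left behind is called bulk. The mice are numbered within their treatment, so the 4 arrays of a group are 4 animals, and the p-values cover the spread between these animals. The model is limited by its single tumour line, by a drug that reaches every cell of the host, and by a bead selection that enriches endothelium without purifying it.

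Sunitinib is a small inhibitor of receptor tyrosine kinases. It blocks the VEGF receptors of endothelium, the PDGF receptors of pericytes and fibroblasts, and the related receptors KIT, CSF1R, FLT3 and RET. Tumours that resume growth under such drugs are known to use other angiogenic factors, to take up existing vessels, or to contain tumour cells that tolerate low oxygen. Blood vessels hold endothelium, which expresses PECAM-1, wrapped by mural cells, and PECAM-1 is also present on platelets and on several kinds of leukocyte.

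Levels are log2 processed signals from which the array's own 75th percentile was taken away, so that 0 is that percentile, and all differences are resistant minus vehicle on that scale. A gene was tested with limma where Feature Extraction called its probe well above background on at least 4 of the 12 EC arrays, which include 4 arrays of mice labelled sensitive; a call means an adjusted p under 0.05. Of 17946 genes tested, 3438 (19.2%) were called higher and 4871 (27.1%) lower in the resistant EC fraction, 46.3% in either direction. Detection differed: 46.1% to 52.9% of probes on a resistant array and 80.3% to 82.2% on a vehicle array were well above background. Higher genes made up 41.4% of the calls; this share was 72.9% with another background correction, 51.6% in the deposited normalised values, 49.9% with quantile normalisation and 16.6% when arrays were scaled on probes detected on all 12 EC arrays. The median of all genes was 0.03, 0.24, 0.07, 0.07 and -0.25 in the same order, and list medians are to be read against it. All resistant arrays of the study, EC and bulk, share 1 slide, and the vehicle EC arrays lie on another, so the slide and the group cannot be told apart. Among the 12593 genes well above background on all 8 arrays, 3393 (26.9%) were called higher and 1144 (9.08%) lower. Another 2681 genes were well above background on every vehicle array and on no resistant array, and 2522 of them were called lower.

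The direction of the calls moved with the brightness of the probe. Genes were divided by vehicle level into 5 classes of equal size. In the dimmest class the median difference was -1.09, with 3.23% called higher and 56.4% lower. In the brightest class the median difference was 0.39, with 38.3% called higher and 2.62% lower. For this reason the counts of called genes in a list stand beside the share called in all genes of the same classes as its members, named the share at matched brightness. Where a list is said to have none called in a direction, limma gave none there at an unadjusted p under 0.05 either, unless a count is given. Of the genes called higher that were also tested in bulk, 87.6% had the same sign there, and of those called lower 88.1%, against 72.8% of all genes. A test of the EC difference against the bulk difference, with the tumour as a block, called 59 genes higher and 184 lower, 1.44% of the 16894 genes tested in both fractions. Without the bulk array of resistant mouse 2, which had 83.4% of probes well above background against 55.3% to 58.7% on the other 3 resistant bulk arrays, these counts were 421 and 415. Bulk called 21.5% of the genes called lower in EC the same way, and 74.5% without this array. For genes called higher in EC the shares were 7.42% and 30.6%, and for all genes 7.84% and 31.2%. Bulk differences below include this array unless its absence is stated. They all include the bulk array of vehicle mouse 3, whose means stood apart on some lists. Its endothelial mean was 0.67, against -2.44, -2.89 and -2.33 on the bulk arrays of vehicle mice 2, 4 and 5. Its immediate early mean was 1.63, against 4.53, 4.67 and 4.54. No fit left out the bulk array of vehicle mouse 3, so its weight in the bulk differences and in the EC against bulk tests was not tested.

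**Figure D1:**
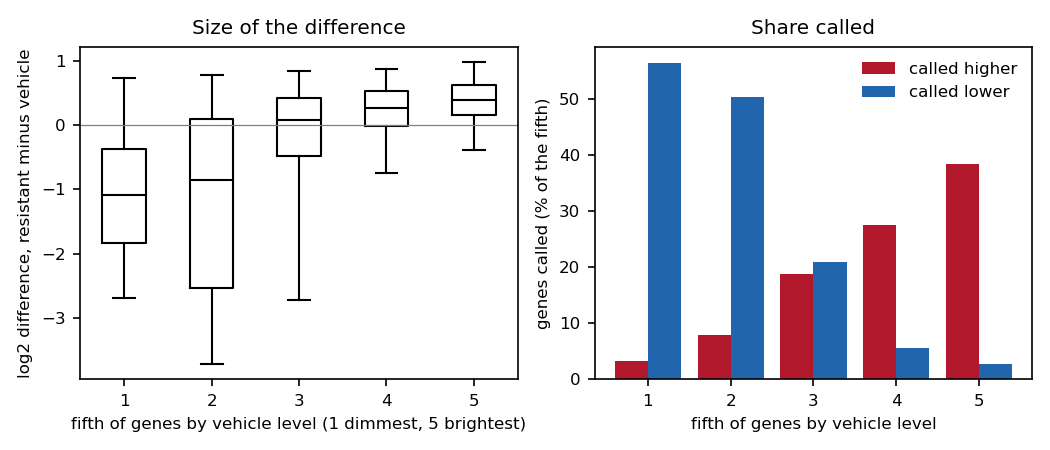
The left panel shows the log2 difference, resistant minus vehicle, of the 17946 genes tested in 5 equal classes of their vehicle level (boxes are quartiles with the median, whiskers the central 90%), and the right panel the percentage of each class called by limma at an adjusted p under 0.05. The median runs from -1.09 in the dimmest class to 0.39 in the brightest, and the share called lower from 56.4% to 2.62%.

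The endothelial identity of both groups was measured with 30 markers. All 30 were well above background on all 8 arrays. None was called higher and 2 were called lower, where 31.4% and 7.52% of genes at matched brightness were; at an unadjusted p under 0.05 the limma counts were again 0 and 2. The median difference was -0.10, or 0.02 without vehicle mouse 5, while the brightness classes of these markers had a median of 0.39. With single arrays left out 1 to 3 markers were called lower (1 without resistant mouse 2 or 4 or vehicle mouse 3) and at most 1 higher. Under the other scalings 2 to 6 markers were called lower and at most 1 higher, with medians of -0.12 to -0.38; the 6 came from scaling on probes detected on all 12 EC arrays. Pecam1, whose protein was the target of the beads, stood at 1.62, 0.68, 1.22 and 1.40 on the arrays of resistant mice 1 to 4 and at 1.76, 1.41, 1.75 and 2.03 on those of vehicle mice 2 to 5; per-array values below keep this order. The groups overlapped for Pecam1, with a difference of -0.51 ± 0.26 (SE; limma adjusted p = 0.137). Cdh5, which encodes the VE-cadherin of endothelial junctions, read 3.94, 3.33, 3.13 and 3.69 against 3.44, 3.27, 3.45 and 3.44, a difference of 0.12 ± 0.22 (adjusted p = 0.677). The members that fell were Sox7, a transcription factor of endothelium, and Cldn5, a claudin of tight junctions. Sox7 read 0.95, -0.20, 0.35 and 0.66 against 1.16, 1.75, 1.76 and 1.56 (difference -1.12 ± 0.27; adjusted p = 0.00540), without overlap. Cldn5 fell by 0.74 ± 0.24 (adjusted p = 0.0246), a call that was lost when single arrays were left out. In bulk the difference of Sox7 was 1.69 and that of Cldn5 0.48.

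Markers of vessel type were lower in part. Of 18 arterial, capillary and venous markers 4 were called lower and none higher, where 8.44% of genes at matched brightness were called lower and 30.2% higher. Bmx, a kinase of arterial endothelium, read -1.41, -1.31, -1.66 and -1.61 in resistant mice against -0.21, 0.12, -0.23 and 0.65 in vehicle mice. Each resistant array lay at least 1 log2 unit below the lowest vehicle array, and the difference was -1.58 ± 0.21 (adjusted p = 6.09e-05). Car4, a carbonic anhydrase of capillary endothelium, read 1.20, 1.57, 1.99 and 2.00 against 3.19, 2.90, 3.16 and 3.43, a difference of -1.48 ± 0.20 (adjusted p = 8.10e-05). Another Car4 probe, well above background on all 8 arrays, differed by -0.781 ± 0.5237 and was not called (limma adjusted p = 0.2455 over all probes). Sema3g, a semaphorin of arteries, fell by 1.85 ± 0.36, with 2 of its 4 resistant arrays well above background. The bulk differences of Bmx and Car4 had the same sign, -1.44 and -0.88, and that of Sema3g was 0.97. Of 6 lymphatic markers tested, none was called in either direction by limma (11.4% higher and 44.4% lower at matched brightness), with 1 higher and 1 lower at an unadjusted p under 0.05.

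The receptors that sunitinib blocks were next. Of the 9 receptor genes, 1 was called lower and none higher, where 21.9% and 23.1% of genes at matched brightness were; at an unadjusted p under 0.05 limma gave 2 lower and none higher. The median of the 9 differences was -0.52, but it turned to 0.13 with quantile normalisation, 0.07 with another background correction and 0.08 in the deposited normalised values. Without resistant mouse 1, 4 receptor genes were called lower and 1 higher, and without vehicle mouse 2 none was called. Kdr, the main VEGF receptor of endothelium, stood at 2.28, 3.19, 3.04 and 3.24 in resistant mice and at 3.79, 3.42, 3.71 and 3.55 in vehicle mice. All resistant arrays lay below all vehicle arrays, as for 24.4% of all genes tested, and Kdr fell by 0.68 ± 0.21 (adjusted p = 0.0195). This call has limits: a second probe of Kdr differed by 0.50 in the other direction (adjusted p = 0.152), the call was lost without vehicle mouse 2 (adjusted p = 0.054), and bulk had a difference of -1.16.

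Flt1, the VEGF receptor that also acts as a decoy, read 3.70, 2.14, 2.37 and 3.18 in resistant mice and 3.31, 3.41, 3.53 and 3.83 in vehicle mice. Resistant mouse 1 lay among the vehicle arrays while the other 3 lay below them. The difference of -0.67 ± 0.31 was not called (adjusted p = 0.101), and without resistant mouse 1 it was -0.95 (adjusted p = 0.0126). Flt4, the receptor of lymphatic and sprouting endothelium, read -3.34, -3.94, -3.74 and -3.60 against -2.89, -3.20, -2.95 and -2.80; these did not overlap, but the difference of -0.69 ± 0.28 missed the threshold (adjusted p = 0.0601). Csf1r, the receptor that macrophages need for survival, read 6.58, 8.13, 8.43 and 8.22 against 6.16, 6.58, 7.60 and 7.48, a difference of 0.89 ± 0.42 (adjusted p = 0.108). As with Flt1, resistant mouse 1 stood apart, and without it Csf1r differed by 1.31 (adjusted p = 0.0078). The PDGF receptor genes Pdgfra and Pdgfrb differed by 0.15 (adjusted p = 0.735) and -0.52 (adjusted p = 0.224), and Kit by -0.02 (adjusted p = 0.948). Flt3, the receptor of early blood and dendritic cells, differed by -0.61 (adjusted p = 0.182), and Ret, the receptor for the GDNF family, by -0.21 (adjusted p = 0.802).

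**Figure D2:**
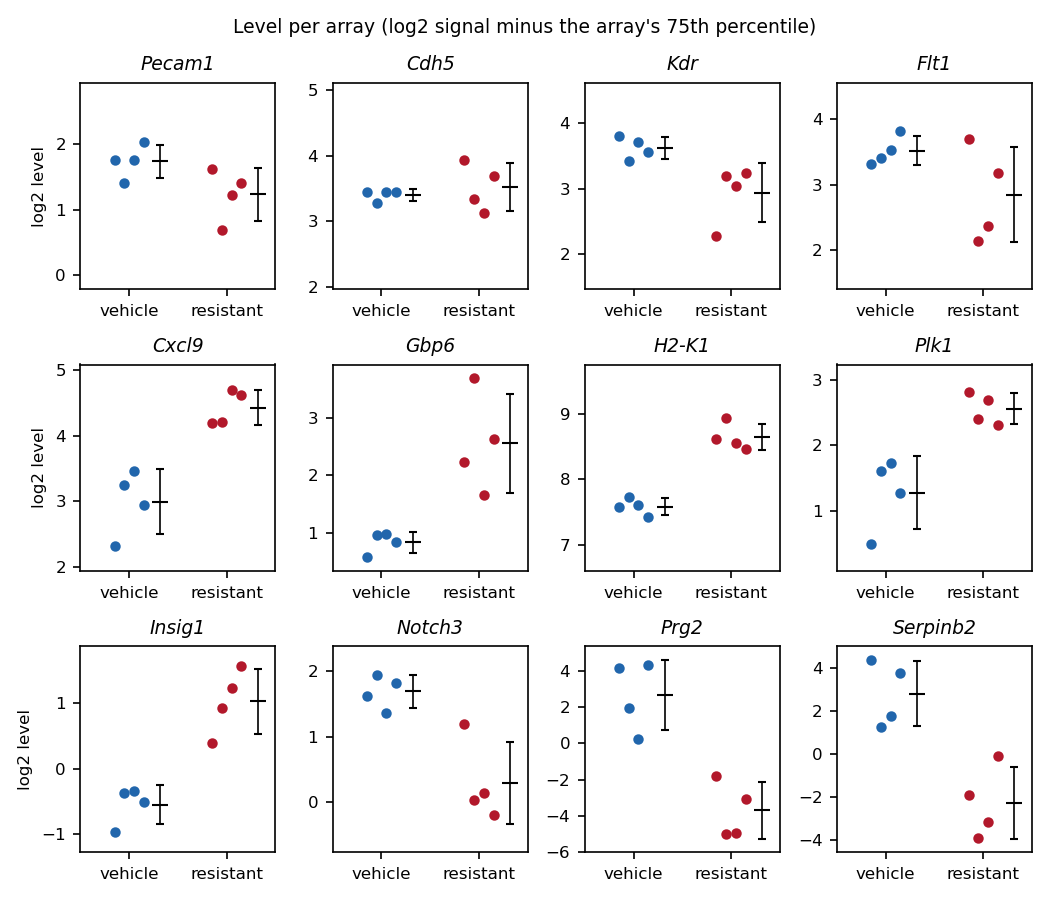
Each panel shows the level of 1 gene on each array of the EC fraction (log2 scale, 0 being the array's 75th percentile) for 4 vehicle mice (blue) and 4 resistant mice (red), with the mean and SD of each group beside the points. Kdr and Notch3 do not overlap between groups and are lower in resistant mice (-0.68 and -1.40). Cxcl9, Gbp6, H2-K1, Plk1 and Insig1 do not overlap and are higher, and Prg2 and Serpinb2 spread over more than 3 log2 units within each group. Of all genes tested, 15.6% do not overlap on the higher side and 24.4% on the lower side.

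Among 14 ligands of these receptors, 1 was called higher and 2 lower (25.6% and 16.7% at matched brightness), or 1 lower without resistant mouse 2 or 3 or vehicle mouse 3. Vegfa, the main ligand of KDR, read 3.51, 4.06, 4.97 and 5.30 in resistant mice and 4.52, 4.24, 5.15 and 5.19 in vehicle mice, so that the groups overlapped throughout (difference -0.31; adjusted p = 0.502). Pdgfb, which endothelium releases to recruit pericytes, read 3.80, 4.05, 4.13 and 4.09 against 2.92, 3.77, 3.48 and 2.91. Its lowest resistant array lay just above its highest vehicle array, and Pdgfb rose by 0.75 ± 0.20 (adjusted p = 0.00827), a call that was lost with quantile normalisation and in the deposited values. Its other probe, well above background on all 8 arrays, differed by -0.12 (limma adjusted p = 0.734 over all probes). The rise of Pdgfb is therefore not settled by these probes. Of 22 genes of the VEGF response and of tip cells, the leading cells of a sprout, 1 rose and 3 fell (30.6% and 8.48% at matched brightness), or 2 and 5 without resistant mouse 1. Ramp3, a co-receptor for adrenomedullin, fell by 1.30 ± 0.31 (adjusted p = 0.00463), and Mcam, an adhesion molecule of endothelium and pericytes, rose by 1.23 (adjusted p = 0.0153). A second Mcam probe, well above background on all 8 arrays, differed by -0.21 (adjusted p = 0.526 over all probes), so the direction of Mcam is not settled by these probes. None of 8 genes of the angiopoietin and TIE receptor system was called by limma (23.9% higher and 20.2% lower at matched brightness), and none had an unadjusted p under 0.05.

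Among 24 genes of angiogenic routes beyond VEGF, 3 were called higher and 7 lower, with a median difference of -0.69 (-0.46 without vehicle mouse 5). At matched brightness 25.5% of genes were called higher and 17.4% lower. Without resistant mouse 1 the counts were 7 higher and 7 lower, and 2 to 4 were called lower without resistant mouse 2 or 3 or any 1 of the vehicle mice. Fgf2, a growth factor of endothelium and fibroblasts, rose by 1.39 (adjusted p = 0.0140) with 3 of its 4 resistant arrays well above background. Ednrb, an endothelin receptor, fell by 1.45 (adjusted p = 0.00213), with -1.43 in bulk. Cxcl12, the ligand of CXCR4, fell by 1.00 (adjusted p = 0.0179), with 0.55 in bulk. Another Cxcl12 probe differed by -0.784 and was not called (limma adjusted p = 0.1596 over all probes). Id1, a target of BMP signals in endothelium, rose by 1.46 ± 0.22 (adjusted p = 0.000206), and bulk had 1.61; the TGF-beta and BMP list had 2 of 20 genes called higher and 1 lower (30.1% and 8.77% at matched brightness), 4 and 2 without resistant mouse 1, and 1 higher without any 1 of resistant mice 3 and 4 or vehicle mice 2, 3 and 5. Of 10 genes of mesenchymal transition 1 rose and 2 fell (26.2% and 13.7% at matched brightness; 0 and 1 without any 1 of resistant mice 2 and 3 or vehicle mice 4 and 5, 1 lower without vehicle mouse 2), among them Cdh2, the N-cadherin gene, which fell by 1.97; the median of 0.10 turned negative, -0.02 to -0.21, under each of 4 other scalings, and -0.03 without resistant mouse 1.

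The Notch list, 16 genes of the pathway that restrains sprouting and stabilises vessels, had 1 gene called higher and 3 lower (22.3% and 19.5% at matched brightness), or 5 lower without resistant mouse 1 and 2 higher without resistant mouse 4. Notch3, the receptor of mural cells, read 1.20, 0.04, 0.14 and -0.20 in resistant mice and 1.63, 1.95, 1.37 and 1.83 in vehicle mice. The groups did not overlap, and Notch3 fell by 1.40 ± 0.30 (adjusted p = 0.00244). In bulk its difference was 0.03, and the test of EC against bulk gave -1.43 (adjusted p = 0.0327). Notch1, the main endothelial receptor, was called higher by 2.66 through its brightest probe, which read 0.17, 2.40, 0.61 and 2.08 against -1.22, -2.02, -1.54 and -0.61. Its other probe differed by -2.49, with no resistant array well above background, and the mean of both differed by 0.09 (adjusted p = 0.882), so the direction of Notch1 is not settled by these probes. Hey2, a Notch target of arteries, was not well above background on any resistant array; its difference was -1.38, and 0.43 with another background correction, and bulk had 2.02.

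Of 13 markers of mural cells, which wrap the endothelium, 7 were called lower and 1, Mcam, higher, with a median difference of -1.13. At matched brightness 16.2% of genes were called lower and 25.1% higher. The lower count was 10 without resistant mouse 1 and 5 without resistant mouse 2 or 3 or vehicle mouse 5. With each array left out the median ran from -1.46 to -0.87. The Mcam call was lost with the mean of its probes, with quantile normalisation, in the deposited values and with scaling on probes detected on all 12 EC arrays. Rgs5, a marker of pericytes, read 1.82, -0.06, 0.14 and 1.03 in resistant mice and 2.05, 1.87, 1.70 and 1.86 in vehicle mice. Resistant mouse 1 lay within the vehicle range, and Rgs5 fell by 1.13 ± 0.37 (adjusted p = 0.0263). Higd1b, another pericyte marker, fell by 1.54 and had -1.34 in bulk, and Des, the desmin gene, fell by 1.92 with -1.83 in bulk. The mean level of the mural list was 1.40, 0.37, 0.36 and 0.75 on the resistant arrays and 1.53, 1.58, 1.39 and 1.74 on the vehicle arrays, and its median difference in bulk was -0.77. In a bulk measurement of a mixed fraction, fewer cells of a type and less RNA per cell cannot be told apart.

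Genes that present antigen to CD8 T cells were higher in the resistant EC fraction. Of 17 genes of MHC class I presentation, 15 were called higher and none lower, with a median difference of 0.64; at matched brightness 35.9% of genes were called higher. H2-K1, a classical class I heavy chain, read 8.62, 8.94, 8.56 and 8.46 in resistant mice and 7.57, 7.73, 7.61 and 7.42 in vehicle mice. The groups did not overlap, and H2-K1 rose by 1.06 ± 0.15 (adjusted p = 0.000126). H2-M3, a class I molecule that presents formylated peptides, read 3.56, 4.00, 3.86 and 3.68 against 2.65, 2.83, 2.58 and 2.47 and rose by 1.14 ± 0.16 (adjusted p = 8.63e-05). Psme2, a subunit of the proteasome activator that shapes class I peptides, rose by 0.98 (adjusted p = 0.000335). Class I genes are near-identical copies, so that their probes may cross-hybridise, and a second H2-K1 probe rose by 0.46 (adjusted p = 0.0212). The count of class I genes called higher was 14 with another background correction, but 5 with quantile normalisation, 4 in the deposited values and 7 when arrays were scaled on probes detected on all 12 EC arrays, and the median stayed above 0 under each of these (0.31 to 0.54).

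Targets of interferon-gamma showed the same direction. Of 21 tested, 15 were called higher and none lower, with a median difference of 1.03, where 30.2% of genes at matched brightness were called higher. Cxcl9, a chemokine for T cells, read 4.19, 4.21, 4.71 and 4.63 in resistant mice and 2.32, 3.25, 3.46 and 2.94 in vehicle mice. No array overlapped, and Cxcl9 rose by 1.44 ± 0.36 (adjusted p = 0.00645). Cxcl10, a chemokine for the same receptor, read 5.44, 5.72, 6.25 and 6.46 against 4.09, 4.94, 5.08 and 4.74 and rose by 1.25 ± 0.29 (adjusted p = 0.00421). Gbp6, a guanylate-binding protein of cell defence, read 2.24, 3.70, 1.66 and 2.63 against 0.57, 0.96, 0.97 and 0.83 and rose by 1.73 ± 0.37 (adjusted p = 0.00229). The mean level of the list was 2.82 to 2.90 on the 4 resistant arrays and 1.73 to 2.15 on the 4 vehicle arrays. With each array left out in turn 14 to 17 of the targets were called higher, and 10 to 17 were under the other scalings with medians of 0.70 to 0.89. In bulk the median difference of the list was 0.80, and the median of EC minus bulk differences was 0.11.

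Of 22 genes of the type I interferon response 8 were called higher and none lower, near the 33.6% at matched brightness. Irf9 and Stat2, parts of the transcription factor that type I interferon activates, rose by 0.93 (adjusted p = 0.000455) and 0.87 (adjusted p = 0.00176). Without vehicle mouse 2, whose mean level on this list was the lowest of the vehicle arrays, 3 genes were called higher; 4 were without resistant mouse 2, 5 without resistant mouse 3, and 3 with quantile normalisation and in the deposited values. MHC class II, which presents antigen to CD4 T cells and is made by macrophages and other antigen-presenting cells, had 4 of 11 genes called higher (31.0% at matched brightness) 9 without resistant mouse 1, and 2 without any 1 of resistant mice 2 to 4 or vehicle mice 2 and 3. The mean level of the class II list was 3.78, 4.87, 4.95 and 4.96 on the resistant arrays and 3.20, 3.85, 4.18 and 4.20 on the vehicle arrays, so resistant mouse 1 alone lay within the vehicle range.

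The promoters of these genes were searched for an element that interferon-activated factors are known to bind. The element, GAAA followed after any 2 bases by GAAA, was searched on both strands in the window from 250 bases before to 50 after each start, in sequences of RefSeq build GRCm38.p6. It was present in 10 of the 15 interferon-gamma targets with a sequence, or 66.7%, in 8 of the 10 called higher, and in 3.99% of all 27025 promoters. The type I list, whose calls were near the share at matched brightness, had it in 10 of 18, and the class I list, with 15 of 17 called higher, in 4 of 14. The first 250 bases of 2 windows are shown, 5′ to 3′ toward the start, with the match in capitals: Cxcl10 on the minus strand at chr5:92348890-92349139, and Gbp5, named for its match after its values were seen, on the plus strand at chr3:142496684-142496933, where the element lies on the opposite strand. A match is a run of letters and was not measured as a binding site. The interferon lists hold genes chosen as known targets, so an excess over all promoters comes with that choice and is not a result of the arrays.
Cxcl10: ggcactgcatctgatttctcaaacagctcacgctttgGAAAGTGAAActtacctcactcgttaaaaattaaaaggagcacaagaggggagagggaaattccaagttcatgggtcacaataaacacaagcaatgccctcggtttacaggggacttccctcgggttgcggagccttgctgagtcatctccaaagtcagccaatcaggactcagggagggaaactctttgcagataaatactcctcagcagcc
Gbp5: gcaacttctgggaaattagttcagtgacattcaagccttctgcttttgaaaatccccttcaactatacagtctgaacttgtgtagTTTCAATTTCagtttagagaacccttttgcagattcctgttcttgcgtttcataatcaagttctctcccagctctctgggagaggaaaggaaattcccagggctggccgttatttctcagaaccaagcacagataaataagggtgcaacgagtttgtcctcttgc

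Gbp5 encodes another guanylate-binding protein, and it read 3.43, 3.27, 3.20 and 3.66 in resistant mice and 1.93, 2.19, 2.29 and 2.38 in vehicle mice. It rose by 1.19 ± 0.22 (adjusted p = 0.000839), with no overlap.

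Chaperones of the endoplasmic reticulum were the next group. Of 18 genes of the unfolded protein response 11 were called higher and none lower, with a median difference of 0.63; at matched brightness 32.6% of genes were called higher, and 7 to 9 of the 18 were called under the other scalings. Hsp90b1, which encodes the chaperone GRP94, read 6.40, 6.56, 6.66 and 6.98 in resistant mice and 5.44, 5.67, 5.94 and 5.42 in vehicle mice (difference 1.03 ± 0.16; adjusted p = 0.000278). Hspa5, which encodes the chaperone BiP and was named for its promoter after its values were seen, read 8.10, 8.23, 8.00 and 8.12 against 7.07, 7.40, 7.21 and 6.96 (difference 0.95 ± 0.15; adjusted p = 0.00025). Neither gene overlapped between groups. The cytosolic and mitochondrial heat shock list had 8 of 12 genes called higher (37.4% at matched brightness), but 2 with quantile normalisation and 1 in the deposited values. Its Hspe1, the mitochondrial co-chaperonin, read 6.28, 6.52, 6.63 and 6.37 against 5.31, 5.66, 5.50 and 5.00 and rose by 1.09 ± 0.18 (adjusted p = 0.000312). In bulk the differences of Hsp90b1, Hspa5 and Hspe1 were 0.35, 0.62 and 0.75.

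The element CCAAT followed after any 9 bases by CCACG, bound by NF-Y and ATF6 in the unfolded protein response, lay in the promoters of 7 of the 16 members with a sequence, all 7 among the 10 called higher, and in 0.137% of all promoters. The heat shock element, GAA, TTC and GAA with any 2 bases between each, lay in 3 of 10 members of the heat shock list, all 3 among the 6 called higher, and in 0.662% of all promoters. The lists hold genes chosen as known members of these responses. An excess over all promoters comes with that choice and is not a result of the arrays. Both elements were searched on both strands of the same windows. The first 250 bases of 3 windows of build GRCm38.p6 are shown with the matches in capitals. Hspa5 lies on the plus strand at chr2:34771840-34772089, Hsp90b1 on the minus strand at chr10:86705445-86705694 with 2 matches, and Hspe1 on the plus strand at chr1:55087898-55088147 with 2 matches that overlap.
Hspa5: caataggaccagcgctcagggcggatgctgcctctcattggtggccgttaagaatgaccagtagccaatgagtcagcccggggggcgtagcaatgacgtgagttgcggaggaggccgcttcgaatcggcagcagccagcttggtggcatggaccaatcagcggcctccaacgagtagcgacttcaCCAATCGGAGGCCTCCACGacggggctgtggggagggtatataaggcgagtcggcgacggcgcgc
Hsp90b1: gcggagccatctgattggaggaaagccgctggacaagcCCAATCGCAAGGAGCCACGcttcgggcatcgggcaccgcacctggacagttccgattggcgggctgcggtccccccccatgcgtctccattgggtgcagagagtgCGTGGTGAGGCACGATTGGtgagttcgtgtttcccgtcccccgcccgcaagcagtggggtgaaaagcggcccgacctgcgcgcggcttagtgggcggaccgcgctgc
Hspe1: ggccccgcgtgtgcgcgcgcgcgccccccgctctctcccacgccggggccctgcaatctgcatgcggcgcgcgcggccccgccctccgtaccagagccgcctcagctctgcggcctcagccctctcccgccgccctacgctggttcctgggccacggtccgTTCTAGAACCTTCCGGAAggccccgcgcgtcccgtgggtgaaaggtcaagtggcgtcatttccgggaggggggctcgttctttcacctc

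Cell division genes were higher in the resistant EC fraction. Of 24 genes of mitosis 10 were called higher and none lower, with a median difference of 0.68, or 0.36 without vehicle mouse 2; at matched brightness 23.7% of genes were called higher. Plk1, a kinase that drives entry into mitosis, read 2.81, 2.40, 2.69 and 2.31 in resistant mice and 0.50, 1.60, 1.73 and 1.28 in vehicle mice, with vehicle mouse 2 the lowest, and rose by 1.28 ± 0.25 (adjusted p = 0.00121). Aurka, a kinase of the spindle poles, read 2.48, 1.91, 2.24 and 2.10 against 0.37, 1.26, 1.13 and 0.76 and rose by 1.30 ± 0.22 (adjusted p = 0.000388). Cdc20, an activator of the anaphase-promoting complex, rose by 1.20 ± 0.23 (adjusted p = 0.00113). These calls are those of the brightest probe of each gene. Cdk1 was called higher by 0.81, but another of its probes differed by -2.55 (limma adjusted p = 2.6e-06 over all probes), with 1 resistant array well above background. Another probe of Tpx2 differed by -1.97 (adjusted p = 7.4e-07), where the one used gave 0.32. The other probes of Birc5 and Ccnb1 were called higher, like the ones used. The number of mitosis genes called higher was 8 to 14 under the other scalings and 9 to 15 with each array left out, 15 without vehicle mouse 4. The median difference of the list in bulk was -0.02. The test of EC against bulk called none of the 24 genes (1.44% of all genes), and none without the bulk array of resistant mouse 2. The data do not say which cells of the fraction divided: endothelial and tumour epithelial markers, macrophages and other cells are all present in it, and their part in the result was not tested.

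Of 24 genes of DNA replication 11 were called higher and 1 lower (28.4% and 9.12% at matched brightness), with a median difference of 0.50; the higher count was 7 without resistant mouse 4, vehicle mouse 2 or vehicle mouse 5. Rrm2, a subunit of the enzyme that makes deoxynucleotides, rose by 1.02 (adjusted p = 0.00237). Tyms, the thymidylate synthase gene, went the other way: it read -2.49, -2.48, -2.26 and -2.15 in resistant mice and -0.96, -0.94, -0.83 and -0.69 in vehicle mice, a difference of -1.49 ± 0.15 (adjusted p = 7.44e-06). Both groups were tight and about 1 log2 unit or more apart. In bulk Tyms differed by -0.45, and the test of EC against bulk gave -1.05 (adjusted p = 0.0160). The mitotic promoters of RefSeq build GRCm38.p6 held the letters CCAAT in 18 of 21 members against 41.1% of all promoters, and TTTGAA, an element of genes that peak in mitosis, in 16 of 21 against 20.2%. Among the 9 of these called higher, CCAAT was in 7 and TTTGAA in 5. An excess over all promoters comes with the choice of known mitotic genes and is not a result of the arrays.

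Sterol and energy metabolism had more genes higher than lower. Of 24 genes of cholesterol synthesis and uptake 11 were called higher and 1 lower (25.3% and 15.4% at matched brightness), and the higher count was 5 to 10 under the other scalings and 7 without resistant mouse 4 or without vehicle mouse 2. Insig1, a sterol-regulated brake on this pathway, read 0.39, 0.93, 1.23 and 1.57 in resistant mice and -0.97, -0.38, -0.33 and -0.50 in vehicle mice. It rose by 1.57 ± 0.23 (adjusted p = 0.000151), bulk had 0.33, and the test of EC against bulk gave 1.25 (adjusted p = 0.0417). Msmo1, a sterol demethylation enzyme, rose by 0.98 ± 0.19 (adjusted p = 0.00101). The sterol element TCACNCCAC, searched on both strands in the same windows, lay in 1 of the 16 promoters with a sequence, in none of the 8 of genes called higher, and in 1.44% of all promoters.

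Of 23 genes of oxidative phosphorylation 15 were called higher and none lower, with a median of 0.56 (38.3% at matched brightness, and 7 with quantile normalisation or in the deposited values). Of 21 glycolysis genes 10 were called higher and 1 lower (35.8% and 3.91%), but 1 and 1 with quantile normalisation or in the deposited values, and 3 higher without resistant mouse 3 or vehicle mouse 2, 5 or 6 without resistant mouse 2 or 4 or vehicle mouse 3. Ldha, which makes lactate, read 8.02, 8.55, 8.50 and 8.41 against 7.58, 7.48, 7.81 and 7.78 and rose by 0.71 ± 0.17 (adjusted p = 0.00416); bulk had -0.11, and the EC difference exceeded it by 0.82 (adjusted p = 0.0415). Slc2a3, a glucose transporter, fell by 1.67 (adjusted p = 0.0206). Of 23 hypoxia genes 4 rose (2 without resistant mouse 2) and 1 fell, fewer than the 28.8% called higher at matched brightness. Their median of 0.18 was -0.10 when arrays were scaled on probes detected on all 12 EC arrays. Car9, the hypoxia-induced carbonic anhydrase, rose by 1.02 (adjusted p = 0.0245) with 0.58 in bulk.

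The proteasome had 19 of 22 genes called higher and none lower, with a median of 0.61 and 36.8% called higher at matched brightness. Psmd2, a subunit of its regulatory cap, read 4.96, 5.02, 4.98 and 4.97 in resistant mice, within 0.1 of each other, and 3.65, 3.97, 4.20 and 3.95 in vehicle mice. It rose by 1.04 ± 0.13 (adjusted p = 4.37e-05), bulk had -0.02, and the test of EC against bulk gave 1.06 (adjusted p = 0.0160). With quantile normalisation or in the deposited values 4 proteasome genes were called. Of 23 ribosomal protein genes 9 were called higher, near the 38.3% at matched brightness, and the median of 0.40 turned to -0.06 with quantile normalisation and in the deposited values; without vehicle mouse 5, 5 were called. Of 14 genes often used as steady references 9 were called higher (36.1% at matched brightness), among them Actb, the beta-actin gene, by 0.77 and Hprt, a purine salvage gene, by 0.93. The mean level of these reference genes was 5.96 to 6.37 on the resistant arrays and 5.50 to 5.66 on the vehicle arrays. Their median difference was 0.62, beside 0.64 for class I, 0.63 for the unfolded protein response, 0.61 for the proteasome and 0.56 for oxidative phosphorylation. Medians of this size were thus not particular to those lists. Of 24 lysosome genes 8 were called higher (35.4% at matched brightness), 19 without resistant mouse 1, 5 without resistant mouse 3 or 4 or vehicle mouse 2, and 1 with quantile normalisation.

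**Figure D3:**
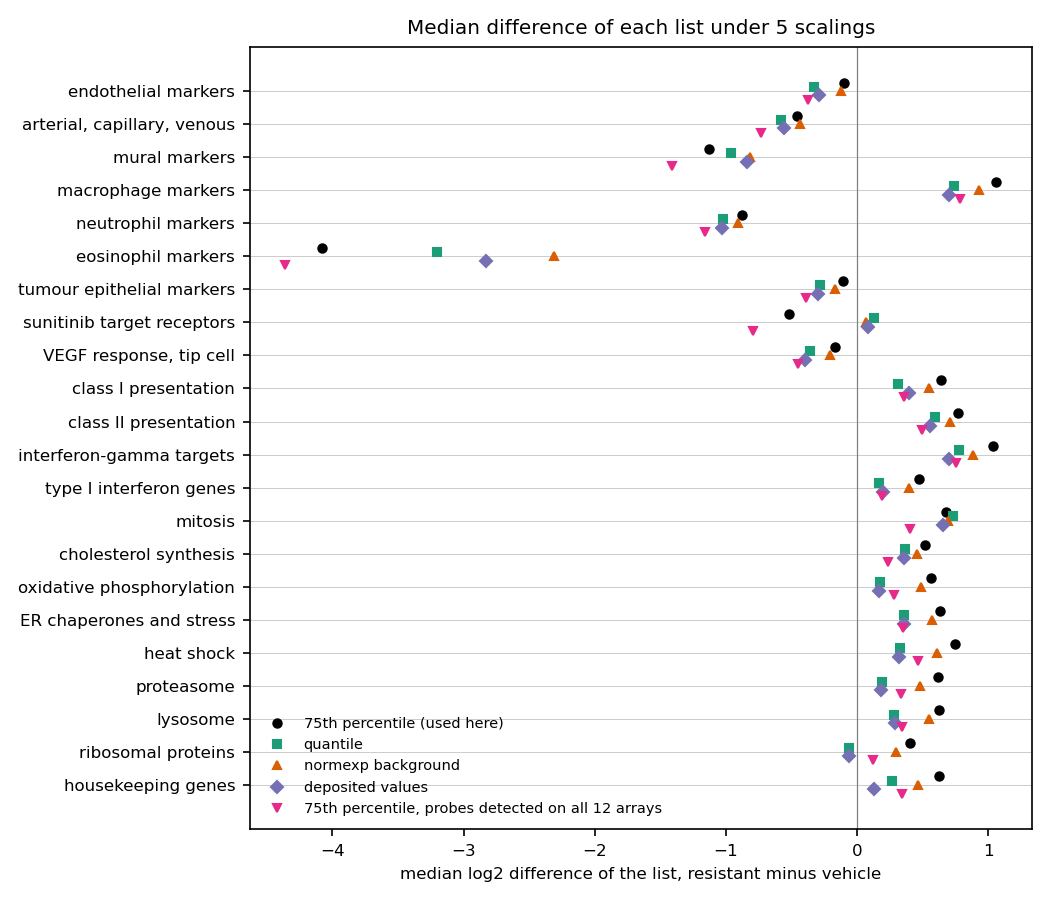
Each symbol is the median log2 difference, resistant minus vehicle, of 1 gene list under 1 of 5 ways of scaling the arrays. The eosinophil and mural lists lie below 0 and the class I, interferon-gamma and mitosis lists above 0 under each scaling, while the sunitinib receptors (-0.52 to 0.13) and the ribosomal proteins (0.40 to -0.06) change sign.

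Markers of other cell types show what else the fraction held. Macrophage markers were present in both groups. Cx3cr1, a chemokine receptor of monocytes and macrophages, read 4.29, 5.67, 6.18 and 5.92 in resistant mice and 2.80, 3.34, 4.53 and 3.93 in vehicle mice, overlapping in resistant mouse 1, and rose by 1.86 ± 0.43 (adjusted p = 0.00422). Of 16 macrophage markers 3 were called higher and none lower (32.9% higher at matched brightness), and the count was 14 without resistant mouse 1 and 1 without any 1 of resistant mice 2 to 4 or vehicle mice 2 and 3. The mean level of the list was 3.05, 4.62, 5.20 and 5.08 on the resistant arrays and 2.53, 2.97, 4.12 and 4.07 on the vehicle arrays. Adgre1, the F4/80 gene, differed by 1.07 (adjusted p = 0.0657), and by 1.56 without resistant mouse 1 (adjusted p = 0.00126). In bulk the median of the macrophage list was -0.52, and the median of EC minus bulk differences was 1.58. The test of EC against bulk called none of the 15 markers measured in both fractions (1.44% of all genes). None was called without the bulk array of resistant mouse 2 either. Resistant mouse 1 had macrophage, class II and lysosome levels within the vehicle range and an interferon-gamma level, 2.90, above every vehicle array. The part of macrophages in the interferon, class II and lysosome results above was not tested, and the values of 1 animal do not decide it.

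Eosinophil genes were lower in the resistant EC fraction. Of the 10 markers, 2 were well above background on all 8 arrays, and both were called lower, with a median of -3.50. The other 8 were called lower too, where 20.3% of genes at matched brightness were, but 3 of them were well above background on no resistant array, the others on 2, and they passed the filter on low values through the arrays where they are high. The median over all 10, -4.08, therefore holds background signal on the resistant side and is given as a description. Prg2, which encodes major basic protein, a toxin of eosinophil granules, read -1.80, -4.97, -4.96 and -3.05 in resistant mice and 4.15, 1.93, 0.26 and 4.33 in vehicle mice. The groups lay at least 2 log2 units apart while each spanned over 3, and the difference was -6.36 ± 0.92 (adjusted p = 0.000132) with 2 resistant arrays well above background. Ear2, an eosinophil ribonuclease that is one of several near-identical copies, was measured on all 8 arrays and read -1.79, -2.56, -3.20 and -1.19 against 3.78, 1.20, -0.97 and 3.69 (difference -4.11 ± 0.87; adjusted p = 0.00235). Epx, the eosinophil peroxidase gene, was well above background on no resistant array and was at least 10.3-fold lower there; this bound is against the dimmest signal called well above background. The mean level of the list was -3.90, -4.26, -4.92 and -4.09 on the resistant arrays and 1.54, -0.83, -1.87 and 1.40 on the vehicle arrays. These means hold the same background signal on the resistant side.

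In bulk the eosinophil median was -0.62, or -1.20 without the bulk array of resistant mouse 2. The test of EC against bulk gave -5.90 for Prg2 (adjusted p = 0.0329) and called 1 of the 10 markers lower, or 3 without the bulk array of resistant mouse 2. Prg2 was well above background on 2 resistant EC arrays, so the size and test of its difference rest partly on background signal. Vehicle mice 2 and 5 were the highest vehicle arrays for Prg2, Ear2 and the eosinophil list. The same 2 mice were highest for Retnlg, a resistin-like gene of granulocytes, which read 0.74, 2.61, 0.86 and 1.74 in resistant mice against 6.32, 4.08, 3.94 and 6.64 in vehicle mice and fell by 3.76 ± 0.65 (adjusted p = 0.000557; bulk -0.22). Retnlg was the sole call among 13 neutrophil markers, where 32.6% of genes at matched brightness were called higher and 5.16% lower; 2 were called lower without resistant mouse 4 or vehicle mouse 3, and 1 higher without vehicle mouse 5. The neutrophil median of -0.88 was -0.08 without vehicle mouse 5, -0.42 without resistant mouse 1 and -1.38 without vehicle mouse 3.

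Serpinb2, a plasminogen activator inhibitor made by monocytes and eosinophils among other cells, followed the same mice. It read -1.92, -3.93, -3.16 and -0.12 against 4.38, 1.26, 1.77 and 3.77 and fell by 5.08 ± 0.86 (adjusted p = 0.000453), with -1.43 in bulk. Its neighbour on chromosome 1, Serpinb10, was well above background on no resistant array and was at least 6.09-fold lower. Bulk had 0.37. The test of EC against bulk gave -4.87 for Serpinb10 (adjusted p = 0.0252). Its size and p rest on background signal of the resistant EC arrays and are given as a description.

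Of the lymphoid lists, 2 of 17 T and NK markers and 3 of 9 B and plasma markers were called lower, where 23.4% and 45.8% of genes at matched brightness were. Cd4, the co-receptor of helper T cells, read 0.31, 0.96, 0.95 and 0.86 in resistant mice and 4.05, 3.32, 3.44 and 3.33 in vehicle mice and fell by 2.77 ± 0.31 (adjusted p = 1.50e-05), while bulk fell by 1.62 (adjusted p = 0.00917). Ptprc, which marks all leukocytes as CD45, differed by -0.15 (adjusted p = 0.780). Of 11 platelet markers 4 were called lower (38.5% at matched brightness). Of 17 tumour epithelial markers 2 were called lower and none higher (7.77% and 30.5% at matched brightness), or 1 lower without any 1 of resistant mice 2 to 4 or vehicle mice 2 to 4, and Epcam differed by -0.11 (adjusted p = 0.898). Of 13 fibroblast markers 2 were called lower (12.7% at matched brightness), 5 without resistant mouse 1 and 1 without any 1 of resistant mice 2 to 4 or vehicle mice 2 and 5; Clec3b, the tetranectin gene, fell by 2.52 with -1.39 in bulk.

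Markers of the host tissue around the tumour had counts near those of genes of their brightness. Of 13 skeletal muscle markers 7 were called lower, where 41.9% of genes at matched brightness were. The muscle median was -1.94 in the EC fraction and -2.21 in bulk (-2.81 without the bulk array of resistant mouse 2). Over the 6 markers well above background on all 8 EC arrays, however, the EC median was -0.18, with 2 called lower. Acta1, the skeletal actin gene, was 1 of these 2 and fell by 2.61 in the EC fraction, with -2.49 in bulk. Of 12 adipocyte markers 6 were called lower and 1 higher, with 41.7% called lower at matched brightness. The bulk median was -0.27, or -0.89 without the bulk array of resistant mouse 2. Over the 3 adipocyte markers well above background on all 8 arrays none was called lower and 1 higher, with a median of 0.38. Lep, the leptin gene, was well above background on no resistant array and was at least 7.87-fold lower, and its bulk difference was -4.31.

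**Figure D4:**
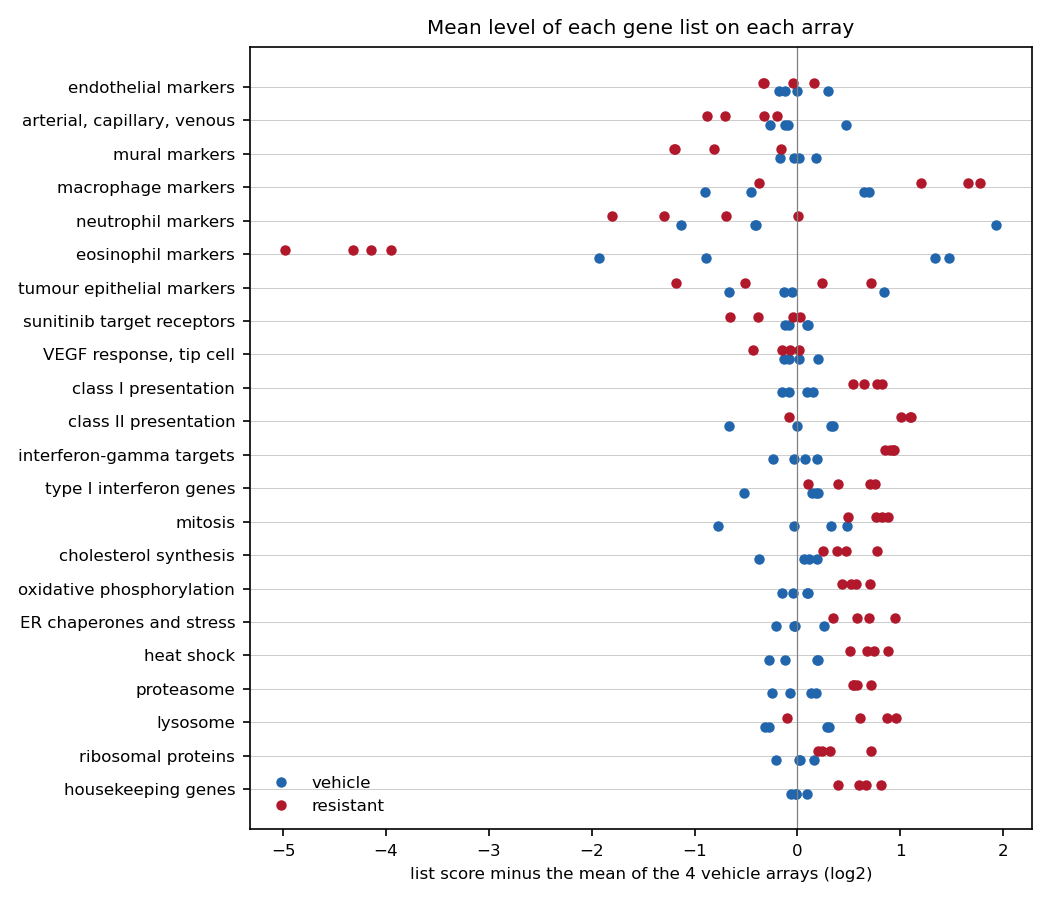
Each point is the mean level of 1 gene list on 1 array of the EC fraction minus the mean of the 4 vehicle arrays (log2), with vehicle in blue and resistant in red. Eosinophil markers lie at least 2 log2 units lower on each resistant array than on the lowest vehicle array. Their mean holds background signal on the resistant side, since 2 of the 10 markers were well above background on all 8 arrays. Interferon-gamma and class I genes lie higher on each resistant array without overlap. Resistant mouse 1 lies among the vehicle arrays for macrophage, class II and lysosome genes.

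Soluble factors differed in both directions. Of 23 cytokines and chemokines 2 were called higher and 4 lower (34.0% and 6.04% at matched brightness). The higher count was 4 without resistant mouse 1, 1 without resistant mouse 2 and 0 without any 1 of resistant mice 3 and 4 or vehicle mice 2 and 3; at an unadjusted p under 0.05 limma gave 3 higher. The median of -0.26 was -0.03 without vehicle mouse 5 and -0.04 without resistant mouse 1. Csf3, Csf2 and Lif, growth factors for granulocytes, macrophages and stem cells, fell by 1.87 (adjusted p = 0.00718), 1.90 (adjusted p = 0.00634) and 1.82 (adjusted p = 0.00493). Their bulk differences had the same sign (-0.61, -1.01 and -0.36). Among 20 matrix proteases and their inhibitors 2 rose and 1 fell (29.0% and 10.4% at matched brightness), or 4 and 4 without resistant mouse 1 and 1 and 1 without resistant mouse 2 or 4 or vehicle mouse 3; Timp4, an inhibitor, was well above background on no resistant array and was at least 6.70-fold lower, with -0.66 in bulk. None of 14 basement membrane genes was called by limma (33.8% higher and 6.66% lower at matched brightness; 2 were called lower without resistant mouse 1), and none had an unadjusted p under 0.05. Of 22 immediate early genes 5 rose and 1 fell, fewer than the 36.7% called higher at matched brightness, and the median of 0.14 turned to -0.27 with quantile normalisation and -0.25 in the deposited values.

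The largest single differences among genes measured on all 8 arrays without overlap were led by Syt10 on the lower side where bulk did not share it. Syt10, a synaptotagmin of vesicle release, read -2.59, 0.05, -1.63 and -1.91 in resistant mice and 2.32, 2.93, 2.94 and 2.58 in vehicle mice and fell by 4.21 ± 0.47 (adjusted p = 1.42e-05). Bulk had 0.39, and the test of EC against bulk gave -4.60 (adjusted p = 0.00619), or -4.58 without the bulk array of resistant mouse 2 (adjusted p = 0.00317). Other large falls were as large in bulk: Fbxw13 fell by 4.38 in the EC fraction and differed by -3.85 in bulk, and Mdh1b by 4.32 and -4.06. Of the 10 largest rises, several rested on 1 probe: Cmya5 rose by 3.21 where its other probe gave -0.36, and Pnma2 by 2.66 where its other probe gave -0.98. Wfdc18, a secreted whey acidic protein of the mammary gland, rose by 3.01 and differed by 3.59 in bulk. Tbx22, a T-box factor of craniofacial development, rose by 3.67, the largest rise by this rule, with 1.64 in bulk.

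**Figure D5:**
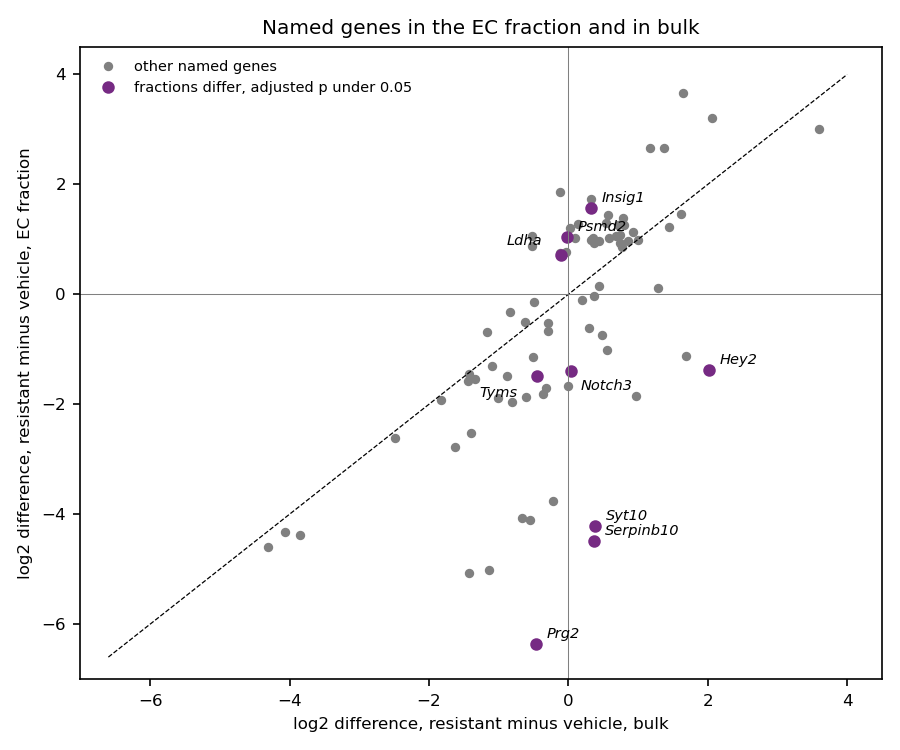
Each point is a named gene, with its log2 difference, resistant minus vehicle, in bulk on the horizontal axis and in the EC fraction on the vertical axis; the dashed line marks equal differences. Purple points are genes whose difference between fractions had an adjusted p under 0.05, among them Prg2 (-6.36 in EC, -0.46 in bulk), Syt10 (-4.21, 0.39) and Insig1 (1.57, 0.33). The EC difference of Prg2 holds background signal on some resistant arrays.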

How the data were processed

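RNA of 32 samples was measured on one-colour Agilent mouse arrays, labelled with Cy3. Per the file headers, the authors' scanner files hold intensity values from Feature Extraction 10.7.3.1, with the background subtracted and no scaling from array to array; version 9.1 stands in the submitters' processing notes. A deposited table of the whole series holds intensity values that the authors normalised in R, per the series' design text, by a method not given in the sources used here. The log2 levels and differences were computed here from the deposited intensities.

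The 59305 spots without the controls gave 55681 probes after replicate spots were averaged and outlier spots left out. RefSeq accessions named 26582 probes through a table of build GRCm38.p6, for 20145 genes, and 1534 probes had a RefSeq accession that is not in that table. Each gene has its brightest probe over all 32 arrays, without regard to group. Of the called genes, 134 had another probe called the other way. The 75th percentile was taken over spots. A gene was tested where its probe was well above background on at least 4 of the 12 EC arrays, using R 4.3.3, limma 3.58.1 and data.table (version 1.17.8), 1 mean for each of the 3 EC groups, and Benjamini-Hochberg adjustment over all genes tested. Adjusted p-values are limma's, SE its moderated error, and SD the spread between arrays. The number of arrays limits the precision. No probe was saturated. A fold given as "at least" compares the mean of the bright group with the dimmest signal called well above background, or with the probe's own signal where that is higher. Bulk values come from a fit of the 12 bulk arrays of 1300 mm3 tumours. The difference between fractions comes from a fit of the 24 arrays with the tumour as a block.

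Alternatives were quantile normalisation, normexp background correction with an offset of 50, the deposited values, a 75th percentile over probes detected on all 12 EC arrays, other filters, probe rules and fits, and each array left out. Normexp used median spot signals because mean signals were not in the files used here. The members and gene lists were chosen with earlier results of these data known. Named genes are the 10 largest rises and falls without overlap among genes measured on all 8 arrays, the 5 largest bounds, up to 3 called members of each of 50 lists, the 9 receptor genes, Vegfa, Pecam1 and the defining markers; not all are printed, some results are not reported here, and Gbp5 and Hspa5 were added after their values were seen. Scripts were tested on simulated data. The plots used matplotlib 3.10.9 under Python 3.11.15.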

Additional observations from a re-analysis of the deposited data

Results flagged for a closer look

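Single arrays of the EC fraction were checked in 266 groups of 4, over the genes named in the text and all list means. Of these groups 19 (7.14%) had 1 array far from the other 3, where chance gives about 1 in 20. Each value is the gap to the nearest array over the range of the group. Bulk arrays were not checked in this way. In resistant mouse 1 the class II list mean (0.92), glycolysis (0.9), platelet markers (0.902), Csf1r (0.837) and Cd4 (0.847) were low, and the receptor ligand (0.902) and basement membrane (0.906) list means were high. Resistant mouse 2 was low in replication (0.874) and resistant mouse 3 in Timp4 (0.911). Vehicle mouse 5 was high in erythroid (0.871) and adipocyte markers (0.913), Cxcl12 (0.837) and Ednrb (0.834) and low in Car9 (0.989). Vehicle mouse 2 was low in type I interferon (0.918) and immediate early genes (0.886) and high in Cd4 (0.832). Vehicle mouse 4 was high in Higd1b (0.976), and vehicle mouse 3 was low in Cdh5 (0.964).

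The resistant difference in the EC fraction departed from that in bulk for 9 of the 81 genes named and tested in both. The test was limma's adjusted p with the tumour as a block. Among all 16894 genes tested in both fractions 1.44% departed. Named genes were chosen largely for their EC calls, so a share above that of all genes comes with the choice. The EC difference was lower for Syt10 (-4.60), Prg2 (-5.90), Serpinb10 (-4.87), Hey2 (-3.40), Notch3 (-1.43) and Tyms (-1.05). On the resistant EC arrays Serpinb10 and Hey2 were well above background on none and Prg2 on 2, so that the sizes and tests of these 3 rest on background signal; the EC difference of Hey2 was 0.43 with another background correction. The EC difference was higher for Insig1 (1.25), Psmd2 (1.06) and Ldha (0.82). All 9 kept their call without the bulk array of resistant mouse 2, which stands apart in its share of probes above background.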

How the results depend on the processing

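In place of 8309 genes, 4472 were called with the filter on all 8 arrays (4455 of them the same way as without it) and 4625 with a difference of at least 1. The 3438 higher calls became 5273 with normexp, 1162 when scaled on probes detected on all 12 EC arrays and 419 with a difference of at least 1. The 4871 lower calls became 3193 with quantile normalisation, 1960 with normexp, 2962 in the deposited values and 1128 with the filter on all 8 arrays. Among genes measured on all 8 arrays, scaling on probes detected on all 12 EC arrays gave 1139 higher and 1833 lower, and a difference of at least 1 gave 383 and 732. Calls among list members numbered 178 with quantile normalisation, 181 in the deposited values and 125 with a difference of at least 1. The fewer genes of the filter and the size limit lower these counts by construction; otherwise the cause was not tested. Of the main calls 4511 were called the same way with quantile normalisation, 4693 with normexp and 4278 in the deposited values. With each array left out, 7185 to 9177 genes were called, 2610 to 4020 higher and 4525 to 5157 lower. Hey2 reversed with normexp (0.43). Without 1 array, 6 called genes named in the report lost their call in at least 1 case: Cldn5, Kdr, Cxcl12, Slc2a3, Car9 and Rgs5. Mouse numbers 2 to 4 occur in both groups but belong to different animals, and deviations of same-numbered mice correlated at 0.102, -0.18 and 0.219. With the replicate block, 8256 genes were called, 3404 higher and 4852 lower, and no named gene changed its call. Slide and group cannot be told apart for any gene, bright or dim. Dim probes are a further limit: a gene below background on the resistant arrays has only a bound there.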

Other observations

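Other gene groups had few members called or calls in both directions. Of 18 genes of amino acid stress 4 were called higher and 1 lower, with 31.5% called higher at matched brightness, and the median of 0.29 was -0.01 in the deposited values. Atf4, the transcription factor of this response, rose by 0.98 (limma adjusted p = 0.000115) with 0.85 in bulk. Ppp1r15a, which lets translation resume after stress, rose by 1.26 (adjusted p = 0.00163) with 0.71 in bulk. Slc7a11, the cystine transporter, fell by 1.70 (adjusted p = 0.00377) with -0.33 in bulk. Of 12 genes of fatty acid synthesis 3 rose and 1 fell (24.1% and 17.4% at matched brightness); Srebf1, a regulator of lipid synthesis, rose by 1.00 (adjusted p = 0.000292) and differed by 0.99 in bulk.

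Of 10 drug transport and metabolism genes 1 rose and 3 fell (18.6% and 26.8% at matched brightness), with none higher without resistant mouse 2 or vehicle mouse 2. Of 14 genes of leukocyte adhesion 1 rose and 2 fell (25.9% and 16.3%), and the counts ran from 0 to 2 higher and from 1 to 3 lower with single arrays left out. Dendritic cell markers had 1 of 9 called higher and 1 lower (20.2% and 26.2%), or 3 higher without resistant mouse 1 and none higher without any 1 of resistant mice 2 and 3 or vehicle mice 2 and 3. Of 5 erythroid markers 1 was called lower (32.5%). Of 9 serpins of the B clade 2 rose and 3 fell (23.9% and 19.6%).

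Mast cell markers had a high median with few calls. Of 9 tested, none was called higher by limma (1 at an unadjusted p under 0.05) and 1 lower, a marker well above background on no resistant array, where 19.2% and 24.9% of genes at matched brightness were called. The median difference was 1.17, and 1.35 over the 7 markers measured on all 8 arrays. Their mean level ran from -1.26 to 0.95 on the resistant arrays and from -0.76 to -0.33 on the vehicle arrays, so that the groups overlapped. Without resistant mouse 1, 3 markers were called higher, and without resistant mouse 2 the median was 0.56.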
